A study of Mus musculus with 10 samples.

Results

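The IgG2b and IgG2c heavy-chain compartment of mouse deep cervical lymph nodes was made up of 9434 productive heavy-chain sequences whose constant region was called as IGHG2B (4766 sequences), IGHG2C (4023) or both (645). IGHG2A was named by 0 sequences. The sequences gave 2961 clonotypes, 1815 in anti-CTLA-4 mice and 1146 in isotype mice, among 281280 productive heavy-chain clonotypes of all classes. In this total a rearrangement found in several classes counts once in each. A clonotype was 1 combination of V gene, J gene and junction nucleotides, with IgG2b and IgG2c merged, and is called IgG2 below. A clonotype found in several mice was given to the mouse with most counts.

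The nodes came from C57BL/6 wild-type mice that had received GL261 cells, a mouse glioma line, in the brain, and were taken at day 20. The 5 anti-CTLA-4 mice had been treated with an antibody to CTLA-4, an inhibitory receptor of T cells, and the 5 isotype mice with a control IgG. Both groups carried the tumour, so neither shows a node without glioma. Total RNA came from whole, unsorted node cells, and heavy chains were read with a kit that tags molecules, giving 1 library per mouse. Deposited counts ranged between 382184 and 790139 per mouse over all chains, and between 159157 and 362445 for productive heavy chains. Whether a count stands for a read or a molecule is not given in the sources used here.

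B cells start with IgM and IgD and replace the constant region by class switching, which keeps the V, D and J segments. In mice the IgG constant genes lie in the order IgG3, IgG1, IgG2b and IgG2c, and C57BL/6 mice carry IgG2c at the place where other strains carry IgG2a. Both IgG2 classes bind activating Fc receptors and complement, and IgG2c switching is promoted by interferon-gamma. Germinal centres add mutations to the V segment, and plasma cells hold far more receptor RNA than resting B cells. A count therefore follows RNA, and more cells of a clone cannot be told apart from more RNA per cell.

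Copies of the same clonotype were found in several mice. Of the 2961 clonotypes, 188 (6.35%) had copies in more than 1 mouse, and 1 of these was in both groups. Mice of the same group with consecutive replicate numbers shared 214 clonotypes over 8 pairs (0 to 59 a pair), other pairs of the same group shared 55 over 12 pairs, and pairs of different groups shared 1 over 25 pairs. The highest numbers were 53 between anti-CTLA-4 mice 3 and 4 and 59 between isotype mice 3 and 4. Giving such clonotypes to 1 mouse moved 28.5% of the IgG2 counts of anti-CTLA-4 mouse 4, 22.4% of those of anti-CTLA-4 mouse 2 and 61.1% of those of isotype mouse 4 to another mouse. In each of the other 7 mice at most 2.30% moved. The source of the copies was not tested.

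The leading IgG2 clonotype of each mouse is shown first, because these 10 rearrangements hold much of the IgG2 signal. They were taken after each clonotype was given to 1 mouse, so none could lead in more than 1 mouse. Before that step, the IGHV1-50 clonotype of anti-CTLA-4 mouse 1 had 2911 counts in anti-CTLA-4 mouse 2. This was above the 2157 of the IGHV1-59 clonotype shown for mouse 2. Each line gives the junction 5′ to 3′, with the bases between the aligned V and J segments in capitals. All of these V genes are on chromosome 12.
IGHV1-50 with IGHJ2, anti-CTLA-4 mouse 1: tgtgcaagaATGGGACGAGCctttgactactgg
IGHV1-59 with IGHJ2, anti-CTLA-4 mouse 2: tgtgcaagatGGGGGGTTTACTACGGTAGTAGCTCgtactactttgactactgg
IGHV1-49 with IGHJ1, anti-CTLA-4 mouse 3: tgtgcaagGGAgtacttcgatgtctgg
IGHV3-8 with IGHJ1, anti-CTLA-4 mouse 4: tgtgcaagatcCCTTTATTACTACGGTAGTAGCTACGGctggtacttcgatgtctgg
IGHV1-9 with IGHJ3, anti-CTLA-4 mouse 5: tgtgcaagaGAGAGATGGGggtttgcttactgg
IGHV1-50 with IGHJ2, isotype mouse 1: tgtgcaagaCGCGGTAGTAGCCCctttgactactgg
IGHV2-9 with IGHJ1, isotype mouse 2: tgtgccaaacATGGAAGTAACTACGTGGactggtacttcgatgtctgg
IGHV5-6 with IGHJ4, isotype mouse 3: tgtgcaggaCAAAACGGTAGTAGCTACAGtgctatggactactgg
IGHV1-62-3/IGHV1-72 with IGHJ3, isotype mouse 4: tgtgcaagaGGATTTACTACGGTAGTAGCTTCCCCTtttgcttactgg
IGHV1-15 with IGHJ2, isotype mouse 5: tgtacTATGGGGGTTACGACAGGctactgg

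These rearrangements used 9 V names over 10 mice, and IGHV1-50 with IGHJ2 led in 2 mice with different junctions. In 8 of the 10 the most counted sequence had no mismatch to the germline V gene. The exceptions were IGHV5-6 of isotype mouse 3 with 3 mismatches and IGHV1-62-3/IGHV1-72 of isotype mouse 4 with 1.

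The largest IgG2 clonotype was IGHV1-50 of anti-CTLA-4 mouse 1, with 98885 counts, 43.4% of the IgG2 counts of its mouse. It had 38985 IgG2b and 59873 IgG2c counts. It was also the only clonotype found in 5 mice, with 2911, 361, 120 and 43 counts in anti-CTLA-4 mice 2, 3, 4 and 5. IGHV1-49 of anti-CTLA-4 mouse 3 had 40926 counts, 21.1% of the IgG2 counts of its mouse. IGHV1-9 of anti-CTLA-4 mouse 5 had 26421 counts, 30.2% of its mouse. The leading clonotypes of anti-CTLA-4 mice 2 and 4 were smaller, with 2157 counts (10.8%) and 1950 counts (16.7%).

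Behind these leaders came other large clonotypes of anti-CTLA-4 mice. In mouse 1, IGHV1-5 with 36194 counts, IGHV1-74 with 17655, IGHV1-75 with 11650 and IGHV1-18 with 9887 were each found in 4 mice. IGHV1-75 and IGHV1-18 are named for that and not for their size. In the same mouse IGHV1-55 had 12829 counts and IGHV1-69 had 10715. In mouse 3 IGHV14-1/IGHV14-2 had 34852 counts, and in mouse 5 IGHV6-6 had 20496. All of these clonotypes were found in anti-CTLA-4 mice alone. Nearly every IgG2 clonotype was likewise in 1 group alone, with 1 of the 188 found in more than 1 mouse in both groups.

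In isotype mice the leading clonotypes were IGHV1-50 with 15601 counts (26.6% of its mouse), IGHV2-9 with 17702 (20.9%), IGHV5-6 with 4849 (15.3%), IGHV1-62-3/IGHV1-72 with 2916 (55.8%) and IGHV1-15 with 3051 (29.0%). In isotype mouse 2 a second clonotype, IGHV14-2 with IGHJ2, had nearly as many counts as the leader, 16939. The leading clonotype held 24.4% ± 12.7 of IgG2 counts in anti-CTLA-4 mice and 29.5% ± 15.6 in isotype mice (SD, n = 5 each), a difference of -5.09 percentage points (two-sided exact permutation test, p = 0.587, adjusted p = 0.587 over 3 measures of clone size). The groups overlapped.

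Many clonotypes differed from a larger one of the same mouse, with the same V and J genes, by a single junction base. Joining each to such a clonotype with at least 100 times its count (error collapse) left 2154 clonotypes in place of 2961. In anti-CTLA-4 mouse 3 a second IGHV1-49 clonotype with 3827 counts differed from the leading one by G9A, counted from the first base of the junction, the leading clonotype's base being given first. It is printed below with that base in lower case.
IGHV1-49 leading clonotype: tgtgcaagGGAgtacttcgatgtctgg
IGHV1-49 neighbour: tgtgcaagaGAgtacttcgatgtctgg
The IgG2c share was 61.9% in the leading clonotype and 57.3% in the neighbour. Over the whole compartment, clonotypes of the same mouse with the same V and J genes and junction length and at least 90% identical junctions were joined into 1503 lineages, of which 386 held more than 1 clonotype. The largest lineage held 57 clonotypes, in isotype mouse 5.

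Of all heavy-chain clonotypes with a class, IgG2 made up 2.14, 1.96, 2.38, 0.415 and 0.932% in anti-CTLA-4 mice 1 to 5, against 0.943, 0.848, 1.10, 0.395 and 0.469% in isotype mice 1 to 5. A rearrangement found in several classes was counted once in each. Anti-CTLA-4 mice 1, 2 and 3 lay above all isotype mice, and the other two lay within the isotype range. The mean was 1.56 ± 0.847% in anti-CTLA-4 mice and 0.751 ± 0.306% in isotype mice (SD, n = 5 each), a difference of 0.814 percentage points that did not pass the test (exact permutation test, p = 0.103, adjusted p = 0.175 over 2 measures). Without anti-CTLA-4 mouse 4 the difference was 1.10 points with an adjusted p of 0.0476 by the same exact test. With error collapse it was 0.563 points in all 10 mice (adjusted p = 0.175 by the same exact test).

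By counts, IgG2 made up 63.1, 8.30, 64.4, 6.42 and 38.1% of heavy-chain counts in anti-CTLA-4 mice, against 23.0, 34.4, 10.4, 3.54 and 6.63% in isotype mice. Anti-CTLA-4 mouse 2, high by clonotypes, was low by counts, and the groups overlapped. The mean was 36.1 ± 28.2% in anti-CTLA-4 mice and 15.6 ± 12.9% in isotype mice (SD, n = 5 each; exact permutation test, p = 0.175, adjusted p = 0.175).

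**Figure D1:**
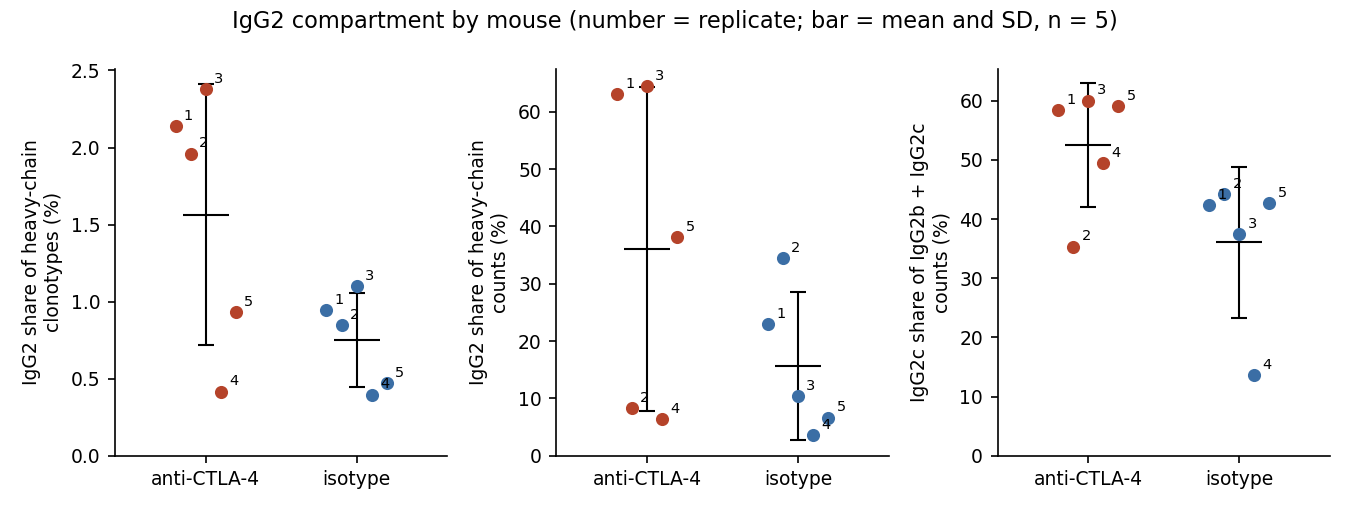
Each point is 1 mouse, labelled with its replicate number, and the bars give the mean and SD of 5 mice. The left and middle plots show the IgG2 share of heavy-chain clonotypes and counts in percent, and the right plot the IgG2c share of IgG2b plus IgG2c counts, where isotype mouse 4 lies at 13.6% and 4 of 5 anti-CTLA-4 mice lie above all isotype mice.

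The balance between the subclasses was taken from counts called as only IgG2b or only IgG2c. IgG2c held 58.4, 35.4, 60.02, 49.5 and 59.1% of these counts in anti-CTLA-4 mice 1 to 5, against 42.4, 44.2, 37.4, 13.6 and 42.7% in isotype mice 1 to 5. Anti-CTLA-4 mouse 2 lay below every isotype mouse but mouse 4, and the other 4 anti-CTLA-4 mice lay above all isotype mice. The mean was 52.5 ± 10.5% in anti-CTLA-4 mice and 36.05 ± 12.8% in isotype mice (SD, n = 5 each), a difference of 16.4 percentage points (exact permutation test, p = 0.0635, adjusted p = 0.190 over 3 measures of balance). The smallest p that 5 against 5 allows is 0.00794. Some IgG2 counts lay in clonotypes with more counts in another class than in IgG2. Such clonotypes held 16.9, 40.3, 2.85, 14.4 and 3.48% of IgG2 counts in anti-CTLA-4 mice 1 to 5. In isotype mice 1 to 5 they held 15.4, 2.97, 37.6, 63.8 and 36.1%.

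Single mice moved the difference in the IgG2c share. With every copy left in its own mouse the difference was 14.2 points (exact permutation test, adjusted p = 0.0952), and without both mice numbered 4, which lost many copies, it was 11.6 points (adjusted p = 0.400 by the same exact test). Without anti-CTLA-4 mouse 2 the difference was 20.7 points, with an adjusted p of 0.0238 by the same exact test, and without isotype mouse 4 it was 10.8 points with an adjusted p of 0.310. Taking the mean of the share over clonotypes in place of the share of summed counts gave a difference of 8.26 points (exact permutation test, p = 0.270). With the leading clonotype of each mouse left out it was 16.1 points (exact permutation test, p = 0.0952, adjusted p = 0.254).

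Counted by clonotype, those with more IgG2c than IgG2b counts made up 45.6, 26.9, 52.8, 33.5 and 42.2% in anti-CTLA-4 mice, against 33.2, 49.3, 33.0, 25.3 and 17.5% in isotype mice. The groups overlapped, with means of 40.2 ± 10.2% in anti-CTLA-4 mice and 31.6 ± 11.8% in isotype mice (SD, n = 5 each; exact permutation test, p = 0.254, adjusted p = 0.254). Clonotypes with both calls made up 21.2 ± 3.76% in anti-CTLA-4 mice and 16.6 ± 6.78% in isotype mice (exact permutation test, p = 0.222, adjusted p = 0.254).

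Single clonotypes ranged over nearly the whole scale. The 92 clonotypes with at least 1000 counts, 59 in anti-CTLA-4 mice and 33 in isotype mice, all had both IgG2b and IgG2c calls. Their IgG2c share ran between 0.203% and 81.4%, with a median of 60.4% in anti-CTLA-4 mice and 50.1% in isotype mice. At 40% or more lay 50 of 59 (84.7%) of the large clonotypes of anti-CTLA-4 mice and 19 of 33 (57.6%) of those of isotype mice. Below 10% lay 3 of 59 in anti-CTLA-4 mice and 7 of 33 in isotype mice. These clonotypes are not replicates of a treatment, so the counts are a description, and 28 of the 59 came from anti-CTLA-4 mouse 3.

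Within mice, the median IgG2c share of the large clonotypes was 56.7, 59.9, 61.0, 61.7 and 60.9% in anti-CTLA-4 mice 1 to 5, which had 15, 5, 28, 3 and 8 of them. It was 12.7, 54.3, 37.6, 16.8 and 79.9% in isotype mice 1 to 5, which had 11, 9, 9, 1 and 3 of them. Anti-CTLA-4 mouse 4 and isotype mice 4 and 5 had 3 or fewer. Over clonotypes with at least 100 counts, the medians were 55.2, 17.9, 60.6, 1.33 and 59.9% in anti-CTLA-4 mice 1 to 5, and 4.96, 56.4, 37.6, 0.338 and 0.592% in isotype mice 1 to 5. The medians of anti-CTLA-4 mice thus lay close together at 1000 or more counts but far apart at 100 or more, and those of isotype mice lay far apart at both.

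**Figure D2:**
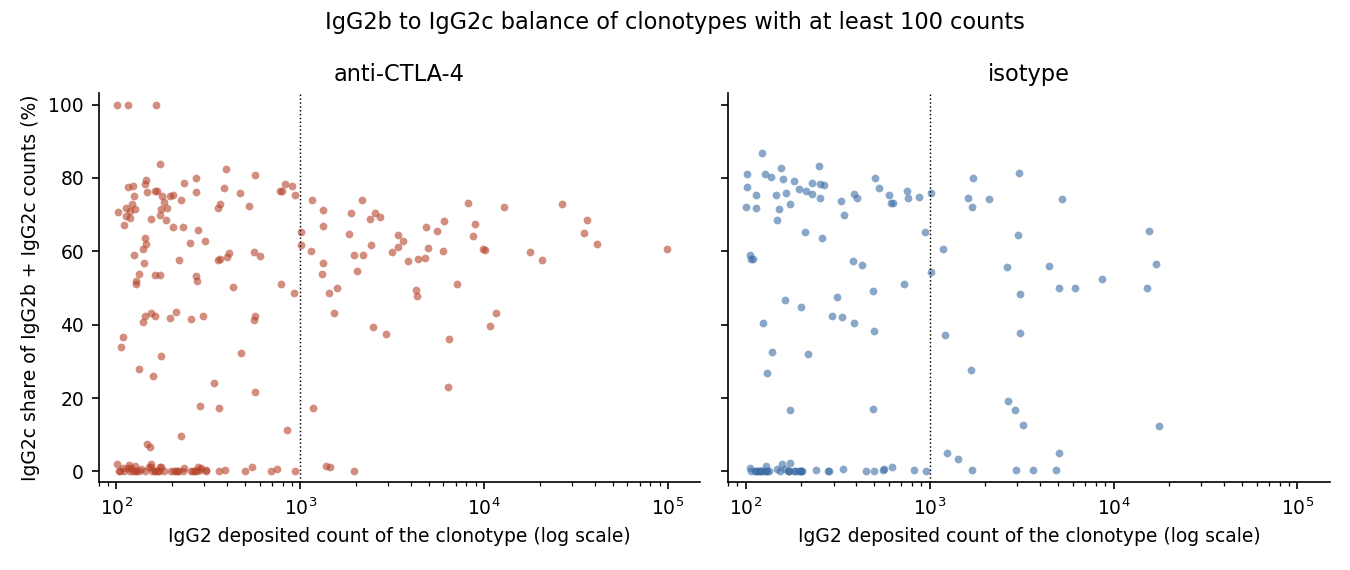
Each point is 1 clonotype with at least 100 IgG2 counts, placed by its deposited count on a log scale and by the IgG2c share of its IgG2b plus IgG2c counts in percent, with anti-CTLA-4 mice on the left and isotype mice on the right. The dotted line marks 1000 counts, above which the shares run between 0.203% and 81.4% and most points lie at 40% or more.

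The ends of this range were in named clonotypes. The lowest IgG2c shares were those of IGHV1-64 with IGHJ2 in anti-CTLA-4 mouse 5 (1964 IgG2b and 4 IgG2c counts, 0.203%), IGHV5-6 with IGHJ4 in isotype mouse 3 (4836 and 13, 0.268%) and IGHV1-53 with IGHJ3 in isotype mouse 5 (2941 and 9, 0.305%). The highest were those of IGHV1-15 with IGHJ2 in isotype mouse 5 (567 IgG2b and 2479 IgG2c counts, 81.4%), IGHV1-62-3/IGHV1-72 with IGHJ3 in the same mouse (347 and 1378, 79.9%) and IGHV1-62-3/IGHV1-72 with IGHJ1 in isotype mouse 3 (246 and 771, 75.8%). Both ends thus occurred in isotype mouse 5.

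Both calls were also found on identical sequences. Of the V-to-J sequences with at least 10 IgG2 counts 47.0% carried both calls, of those with at least 100 counts 82.4%, and of the 98 with at least 1000 counts 98 did. All large clonotypes also had IgG1 counts. In the 86 large clonotypes with fewer IgG1 than IgG2 counts, the median was 4.76 IgG1 counts per 100 IgG2b counts, with a range of 0.287 to 227. In 62 of the 86 it lay between 2.5 and 10. In the 7 of the 86 with over 90% IgG2b it ran between 3.56 and 4.93. Conversely, 26 large IgG1 clonotypes with fewer IgG2 than IgG1 counts had a median of 6.98 IgG2b and 0.0998 IgG2c counts per 100 IgG1 counts. The source of these companion counts was not tested.

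Most IgG2 counts lay in few clonotypes. The 92 clonotypes with at least 1000 counts held 87.3% of IgG2 counts, while 1190 clonotypes had a single count and held 0.163%. The inverse Simpson index, the number of equally large clonotypes that would give the same concentration, was 4.35, 27.8, 10.9, 14.3 and 5.75 in anti-CTLA-4 mice, against 8.69, 7.59, 15.0, 3.04 and 5.10 in isotype mice. Anti-CTLA-4 mouse 2 was the most even and isotype mouse 4 the most uneven. The mean was 12.6 ± 9.36 in anti-CTLA-4 mice and 7.88 ± 4.54 in isotype mice (SD, n = 5 each; exact permutation test, p = 0.389, adjusted p = 0.587). The difference was 4.72, and without anti-CTLA-4 mouse 2 it was 0.933. At an equal depth of 5227 IgG2 counts, 141 ± 63.6 clonotypes were expected in anti-CTLA-4 mice and 120 ± 38.3 in isotype mice (exact permutation test, p = 0.563, adjusted p = 0.587).

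V mismatches to germline, counted on the most counted sequence of each clonotype over at least 200 aligned nucleotides, stand for somatic mutation plus any error of the reads. Of 2957 clonotypes that could be scored, 1289 had none, 624 had 1, 640 had 2 to 4, 311 had 5 to 9 and 93 had 10 or more. The mean was 0.814, 0.533, 0.515, 0.814 and 0.635 mismatches per 100 nucleotides in anti-CTLA-4 mice, against 0.774, 0.591, 0.545, 0.856 and 1.34 in isotype mice. Isotype mouse 5, which held the lineage of 57 clonotypes, was the highest. The mean was 0.662 ± 0.146 in anti-CTLA-4 mice and 0.822 ± 0.318 in isotype mice (SD, n = 5 each; exact permutation test, p = 0.381, adjusted p = 0.381 over 3 measures of mutation). The difference was -0.159, and without isotype mouse 5 it was -0.0294.

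Clonotypes without a mismatch made up 44.5 ± 5.64% in anti-CTLA-4 mice and 38.1 ± 9.20% in isotype mice (exact permutation test, p = 0.230, adjusted p = 0.345). The difference of 6.41 points was 20.9 with clonotypes weighted by their counts (exact permutation test, p = 0.0873, adjusted p = 0.131) and 11.95 among clonotypes with at least 2 counts (p = 0.0794, adjusted p = 0.179 by the same exact test). Weighted by counts, mean mismatches differed by -0.217 (exact permutation test, p = 0.0238, adjusted p = 0.0714). Activation-induced deaminase, the enzyme that starts V mutation, favours the C of AAC, AGC, TAC and TGC and the G of their reverse complements. Such positions made up 14.5% of the germline positions. They held 34.98 ± 5.86% of the mismatches in anti-CTLA-4 mice and 41.2 ± 6.63% in isotype mice (SD, n = 5 each; exact permutation test, p = 0.190, adjusted p = 0.345), so in both groups the share was above that of the positions themselves.

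Set against the other classes of the same mice, IgG2 clonotypes carried more V mismatches than IgG1 and IgM clonotypes. IgG1 clonotypes had 0.777, 0.527, 0.356, 0.458 and 0.495 mismatches per 100 nucleotides in anti-CTLA-4 mice 1 to 5 and 0.426, 0.401, 0.581, 0.581 and 0.891 in isotype mice 1 to 5. Isotype mouse 3 was the one mouse where IgG1 lay above IgG2. IgG2 averaged 0.742 ± 0.248 mismatches per 100 nucleotides, against 0.549 ± 0.169 in IgG1 (SD, n = 10 mice), and IgG2 was higher in 9 of 10 mice, by 0.193 (exact sign-flip permutation test, p = 0.00586, adjusted p = 0.0176 over 9 tests). IgM averaged 0.134 ± 0.0151, and IgG2 was higher in 10 of 10 mice, by 0.608 (exact sign-flip permutation test, p = 0.00195, the smallest that 10 mice allow, adjusted p = 0.00879). Against IgG3 with 0.677 ± 0.355, the difference of 0.0655 did not pass (exact sign-flip permutation test, p = 0.537, adjusted p = 0.691), and IgG2 was higher in 5 of 10 mice. Without both mice numbered 4 the difference from IgG1 was 0.162 with an adjusted p of 0.0703 by the same exact test. The IgG2 and IgG1 sets were not distinct. Over all mice 564 IgG2 clonotypes also had IgG1 counts, beside 1186 IgG1 clonotypes in all. The classes were also not matched for clone size.

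The share without a mismatch was 41.3 ± 7.95% in IgG2, against 52.1 ± 10.5% in IgG1, 52.6 ± 13.7% in IgG3 and 82.1 ± 1.40% in IgM (SD, n = 10 mice). The differences were -10.8 points from IgG1 and -11.3 points from IgG3 (exact sign-flip permutation test, p = 0.0176 and adjusted p = 0.0316 for both), each lower in 8 of 10 mice, and -40.8 points from IgM (adjusted p = 0.00879), lower in 10 of 10. The IgG1 and IgG3 calls were not firm. With any 1 of anti-CTLA-4 mice 1, 3, 4 and 5 or isotype mice 1 and 5 left out, the adjusted p of both was 0.0615 to 0.0633, and for IgG1 also without isotype mouse 2 (0.0633) or isotype mouse 4 (0.0563). Among clonotypes with at least 2 counts the difference from IgG3 was -6.82 points, with an adjusted p of 0.226 by the same exact test.

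**Figure D3:**
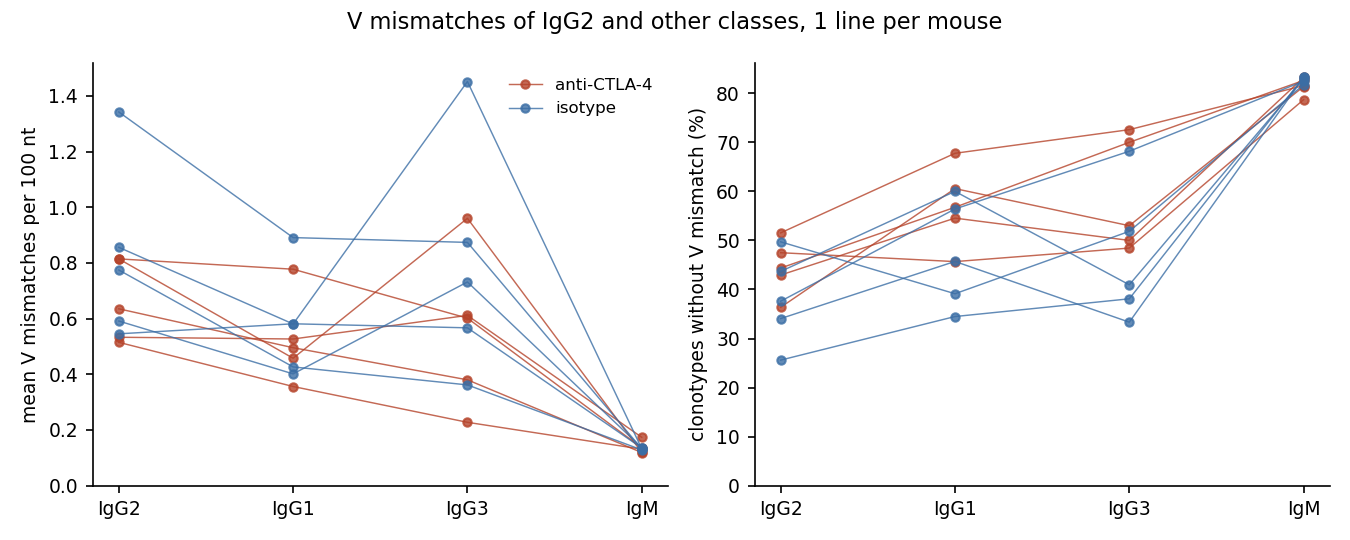
Each line is 1 mouse, with points for IgG2, IgG1, IgG3 and IgM clonotypes. The left plot gives mean V mismatches per 100 nucleotides and the right plot the share of clonotypes without a mismatch in percent, where IgM lies between 78.7% and 83.3% in all mice and IgG2 between 25.6% and 51.5%.

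Within IgG2, larger clonotypes more often matched the germline V gene. Pooled over mice, the share without a mismatch was 25.3% among clonotypes with 1 count, 43.1% from 2 to 9 counts, 63.3% from 10 up to 100, 71.8% from 100 up to 1000 and 82.6% at 1000 or more. At 1000 or more it was 89.8% of 59 clonotypes in anti-CTLA-4 mice and 69.7% of 33 in isotype mice. This difference was not tested, because the clonotypes of a mouse are not independent and some mice had 3 or fewer.

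**Figure D4:**
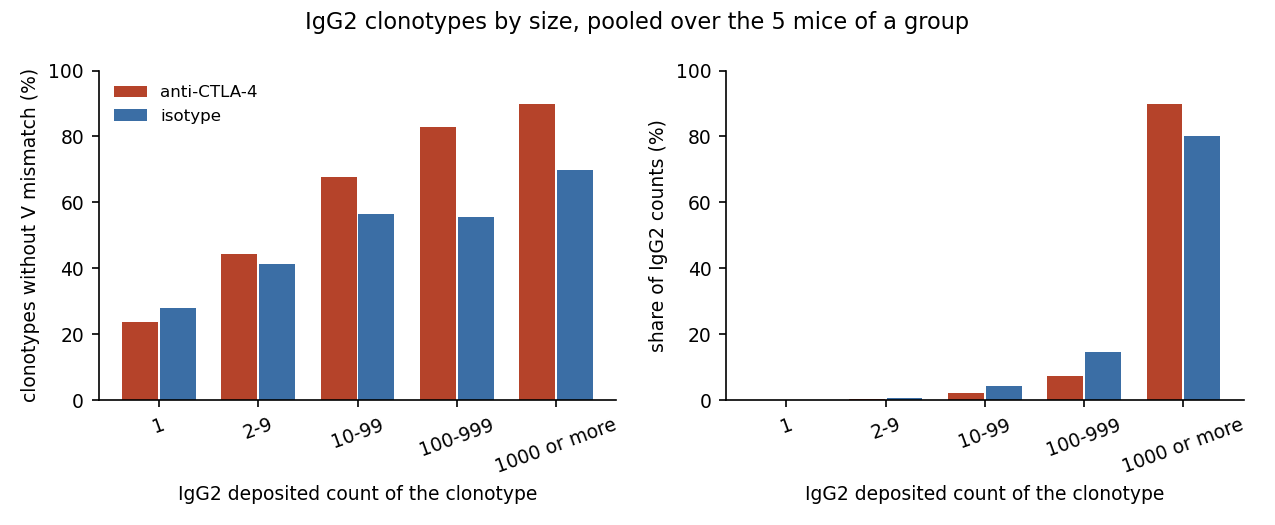
Bars give IgG2 clonotypes pooled over the 5 mice of a group, by deposited count. The left plot shows the share without a V mismatch, which is 25.3% at 1 count and 82.6% at 1000 or more over both groups, and the right plot the share of IgG2 counts, 89.9% in anti-CTLA-4 mice and 80.05% in isotype mice at 1000 or more.

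Clonotypes led by IgG2c were compared with those led by IgG2b within 9 mice that had at least 5 of each kind, at 10 or more counts. By mouse, IgG2c-led clonotypes had 0.119, 0.159, 0.0971, 0.405 and 0.141 mismatches per 100 nucleotides in anti-CTLA-4 mice 1 to 5, beside 0.783, 0.374, 0.256, 0.539 and 0.563 in IgG2b-led ones. In isotype mice 1, 2, 3 and 5 they had 0.634, 0.395, 0.291 and 0.683, beside 0.485, 0.445, 0.480 and 0.957. Isotype mouse 1 was the one mouse where IgG2c-led clonotypes had more. IgG2c-led clonotypes averaged 0.325 ± 0.221 mismatches per 100 nucleotides, against 0.542 ± 0.211 in IgG2b-led ones (SD, n = 9 mice), lower in 8 of 9. The difference of -0.218 did not pass after adjustment (exact sign-flip permutation test, p = 0.0156, adjusted p = 0.0625 over 4 tests). IgG2c-led clonotypes without a mismatch made up 71.2 ± 13.9%, against 59.8 ± 14.1% of IgG2b-led ones (exact sign-flip permutation test, p = 0.0586, adjusted p = 0.0781). Their median count was 97.8 ± 54.7, against 46.9 ± 16.4, higher in 8 of 9 mice (exact sign-flip permutation test, p = 0.0312, adjusted p = 0.0625). Without anti-CTLA-4 mouse 4 the mismatch and count differences had adjusted p-values of 0.0469 and 0.0312 by the same exact test, and without isotype mouse 1 or isotype mouse 2 the mismatch difference had 0.0312 or 0.0469. Without isotype mouse 2 the difference in the share without a mismatch was 14.8 points, with an adjusted p of 0.0469. Among clonotypes with at least 100 counts the differences were -0.153 for mismatches (exact sign-flip permutation test, adjusted p = 0.266), 8.66 points for the share without one (adjusted p = 0.385 by the same exact test) and 177.9 for the median count (adjusted p = 0.25 by the same exact test).

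CDR3 length, the loop between V and J that contacts antigen, ran between 4 and 20 amino acids with a median of 12. The mean was 11.8 ± 0.394 in anti-CTLA-4 mice and 11.6 ± 0.662 in isotype mice (SD, n = 5 each), a difference of 0.213 that did not pass (exact permutation test, p = 0.556). Isotype mouse 5 had the shortest mean at 10.6 and isotype mouse 4 the longest at 12.4. In isotype mouse 5, 57 of 126 clonotypes were 1 lineage and so shared 1 junction length. Across classes, IgG2 averaged 11.7, against 11.8 in IgG1, 11.4 in IgG3 and 11.8 in IgM, and none of the 3 differences passed (exact sign-flip permutation test, adjusted p = 0.799, 0.422 and 0.780).

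Among the J genes, IGHJ4 made up 9.76, 20.5, 39.8, 23.8 and 32.1% of IgG2 clonotypes in anti-CTLA-4 mice, against 31.1, 29.6, 29.5, 39.6 and 51.6% in isotype mice. The mean was 25.2 ± 11.4% in anti-CTLA-4 mice and 36.3 ± 9.53% in isotype mice (SD, n = 5 each; exact permutation test, p = 0.159, adjusted p = 0.444 over 4 J genes), and anti-CTLA-4 mice 1, 2 and 4 lay below every isotype mouse. IGHJ1, IGHJ2 and IGHJ3 averaged 19.8, 32.6 and 22.5% in anti-CTLA-4 mice, against 15.3, 27.5 and 20.9% in isotype mice, with adjusted p-values of 0.444, 0.624 and 0.698 by the same exact permutation test. Of the 126 clonotypes of isotype mouse 5, the 57 of 1 lineage shared 1 J gene.

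V segments were spread over 107 single or joint IGHV names. The IGHV1 family, the largest in this strain, made up 65.5 ± 7.81% of IgG2 clonotypes in anti-CTLA-4 mice and 60.5 ± 15.5% in isotype mice (SD, n = 5 each), beside 64.1% of IgM clonotypes over all mice. IGHV14 followed with 8.92 ± 7.43% in anti-CTLA-4 mice and 8.37 ± 6.94% in isotype mice. No V gene passed the test between the groups by edgeR's quasi-likelihood test on clonotype numbers. Its filter on low numbers left 2 genes, IGHV9-3 and IGHV1-26, and called 0 (0%), with 0 at an unadjusted p under 0.05 and 0 called by DESeq2. With no filter 0 of 107 (0%) were called, with 7 at an unadjusted p under 0.05. DESeq2 without a filter also called 0, with 11 below 0.05.

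Where a V gene was frequent in 1 mouse, much of it was often 1 lineage. IGHV1-80, the most used name, made up 2.22, 5.01, 5.74, 0.610 and 0.683% of IgG2 clonotypes in anti-CTLA-4 mice, against 1.28, 1.72, 2.31, 2.20 and 45.2% in isotype mice. The high isotype value came from 57 clonotypes of mouse 5, all in 1 lineage. IGHV1-5 made up 14.9, 0.477, 3.07, 8.54 and 0% in anti-CTLA-4 mice, against 0, 4.02, 1.16, 0 and 0.794% in isotype mice, and 54 of the 67 clonotypes of anti-CTLA-4 mouse 1 were 1 lineage. IGHV1-5 was called by edgeR without anti-CTLA-4 mouse 5, where 10 genes passed the filter (adjusted p = 0.0247), and not with no filter on the same mice (adjusted p = 0.586). IGHV1-9 made up 16.7% in anti-CTLA-4 mouse 5, with 23 of its 49 clonotypes in 1 lineage, 1.22 to 5.12% in the other anti-CTLA-4 mice, and 0 to 2.87% in isotype mice.

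The other frequent genes were found in both groups at overlapping shares. IGHV1-26 averaged 4.20 ± 1.93% in anti-CTLA-4 mice and 4.00 ± 1.61% in isotype mice (SD, n = 5 each). IGHV9-3 averaged 3.74 ± 3.29% in anti-CTLA-4 mice and 4.35 ± 1.595% in isotype mice. IGHV3-6 averaged 3.36 ± 3.07% in anti-CTLA-4 mice and 4.08 ± 4.86% in isotype mice, where mouse 2 held 44 of its 116 clonotypes, 34 of them in 1 lineage. IGHV14-1/IGHV14-2 averaged 3.42 ± 3.18% in anti-CTLA-4 mice and 3.14 ± 3.63% in isotype mice. The joint name IGHV1-62-3/IGHV1-72 averaged 1.24 ± 0.809% in anti-CTLA-4 mice and 6.27 ± 5.63% in isotype mice (edgeR without a filter, log2 fold change -1.93, adjusted p = 0.557), and 12 of the 14 clonotypes of isotype mouse 4 were 1 lineage. It had the smallest p by DESeq2, with a log2 fold change of -1.82 without a filter (adjusted p = 0.164) and -2.02 among genes with at least 20 clonotypes (adjusted p = 0.0860). IGHV1-72, which dominates the C57BL/6 response to the hapten NP, was named alone by 7 clonotypes in 6 mice.

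IGHV1-49 had the smallest p by edgeR without a filter. It was used by 33 IgG2 clonotypes, in anti-CTLA-4 mice 2, 3, 4 and 5 (3, 28, 1 and 1 clonotypes), and by 0 in isotype mice. Against a floor of 3 clonotypes over the isotype group its share was at least 6.95-fold higher in anti-CTLA-4 mice (edgeR without a filter, adjusted p = 0.310). Of the 28 clonotypes of anti-CTLA-4 mouse 3, 21 were 1 lineage. Without that mouse 5 clonotypes of 1327 remained, and the limit was at least 1.44-fold. IGHV15-2 (16 clonotypes, all in anti-CTLA-4 mouse 3, at least 3.37-fold higher) and IGHV3-1 (11 clonotypes, 10 of them in that mouse, at least 2.32-fold higher) followed, with an adjusted p of 0.475 for both by edgeR without a filter. Most clonotypes of all 3 genes thus came from anti-CTLA-4 mouse 3. Counted by lineages, the log2 fold change of IGHV1-49 was 4.21 over 13 lineages (edgeR without a filter, adjusted p = 0.167). For IGHV15-2 and IGHV3-1, with 2 lineages each, it was 1.91 for both. With every copy left in its own mouse, IGHV1-49 was the 1 gene of 107 called (edgeR without a filter, adjusted p = 0.0477).

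In the other direction, IGHV10-1 averaged 0.378 ± 0.330% in anti-CTLA-4 mice and 3.37 ± 4.62% in isotype mice, where mice 3 and 4 held 23 and 9 of its 40 clonotypes (log2 fold change -2.79, SE 1.22, edgeR without a filter, adjusted p = 0.475). Of the 23 clonotypes of isotype mouse 3, 15 were 1 lineage, and counted by lineages the log2 fold change was -0.18. IGHV5-6 had 9 clonotypes in 5 mice (log2 fold change -2.80, SE 1.42, adjusted p = 0.557), and IGHV5-15 had 3, all in isotype mouse 3. Some V genes are typical of B-1 cells and bind phosphatidylcholine or phosphorylcholine. Among these IGHV11-2 had 1 IgG2 clonotype, IGHV12-3 had 1, IGHV7-1 had 5 and IGHV11-1 had 0, which allows up to 3 of 2961.

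**Figure D5:**
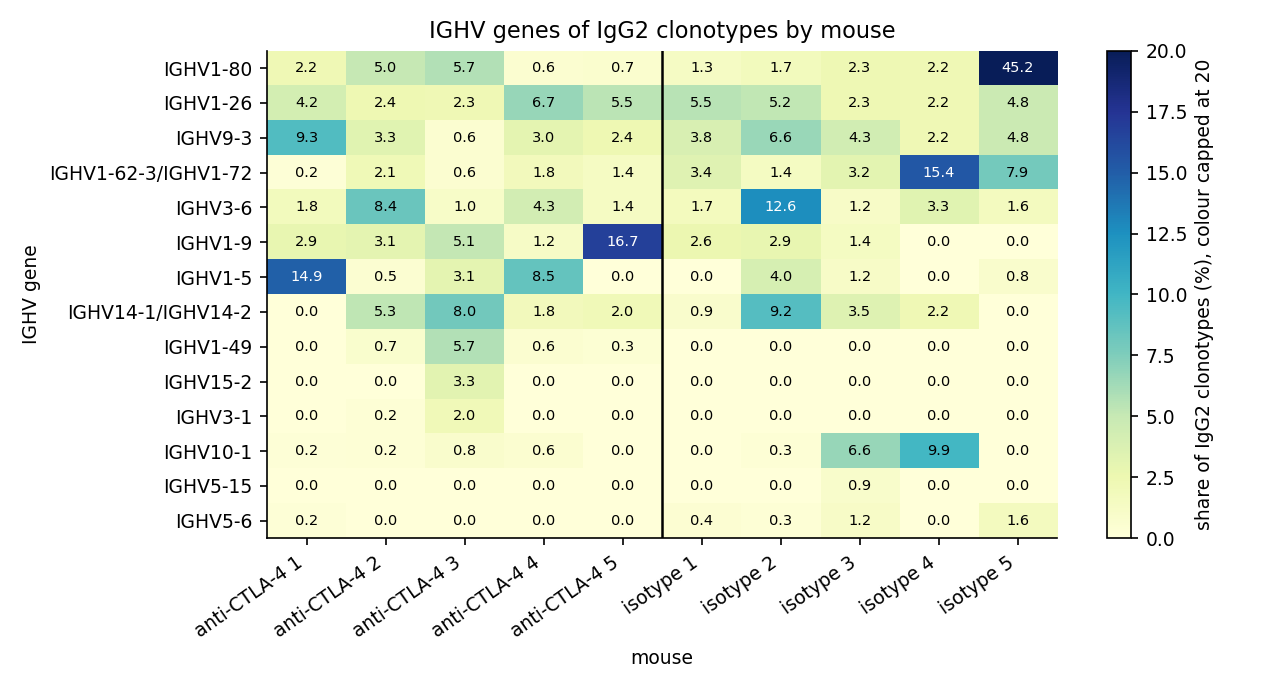
Shares of IgG2 clonotypes in percent for the 8 most used IGHV names and the 6 with the smallest p, by mouse, with anti-CTLA-4 mice left of the line and isotype mice right of it. The colour is capped at 20%, and the highest share is that of IGHV1-80 in isotype mouse 5, at 45.2%.

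Many IgG2 rearrangements were also found with another constant region in the same mouse. Of 2961 clonotypes, 1878 (63.4%) were IgG2 alone, 666 had IgM, 564 had IgG1, 275 had IgG3, 142 had IgA and 85 had IgE counts. In 556 (18.8%) another class had more counts than IgG2, most often IgM (266), IgG1 (116) or IgA (100). Those shared with IgM or IgD made up 23.8 ± 5.87% in anti-CTLA-4 mice and 14.8 ± 9.58% in isotype mice (SD, n = 5 each; exact permutation test, p = 0.111, adjusted p = 0.333 over 3 measures). Those shared with IgG1 made up 18.7 ± 8.38% in anti-CTLA-4 mice and 17.4 ± 4.09% in isotype mice (adjusted p = 0.825 by the exact permutation test), and those shared with IgG3 9.73 ± 3.604% in anti-CTLA-4 mice and 6.52 ± 4.02% in isotype mice (adjusted p = 0.345 by the exact permutation test). Sharing with IgG1 includes the companion counts described above, whose source was not tested.

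Some large clones also had many counts in another class, at like or unlike levels. IGHV1-5 with IGHJ1 in anti-CTLA-4 mouse 1 had 36194 IgG2 counts beside 37838 IgG3 counts. IGHV1-74 with IGHJ3 in the same mouse had 17655 IgG2 beside 9259 IgM counts, and the leading IGHV1-50 of isotype mouse 1 had 15601 beside 8030 IgM counts. At least 1000 IgA counts stood beside 0 of the 59 large clonotypes of anti-CTLA-4 mice, where the highest was 178, and beside 7 of the 33 of isotype mice, 3 in mouse 1, 1 in mouse 3, 1 in mouse 4 and 2 in mouse 5. Any IgA count stood beside 9 of the 59 and 8 of the 33. Among IgG2 clonotypes of any size it stood beside 70 of 1815 in anti-CTLA-4 mice and 72 of 1146 in isotype mice. Isotype mouse 2 had 0 of 9 large clonotypes with IgA, and 28 of the 59 came from anti-CTLA-4 mouse 3. Clonotypes are not replicates of a treatment, so these numbers are a description. In isotype mouse 1 IGHV1-62-3/IGHV1-72 with IGHJ4 had 1429 IgG2 and 14254 IgA counts, and in isotype mouse 3 IGHV1-15 with IGHJ4 had 1205 and 6778, examples chosen after their values were seen. The leading IGHV1-62-3/IGHV1-72 clonotype of isotype mouse 4 had 2916 IgG2 and 15334 IgA counts, and in isotype mouse 5 IGHV1-15 had 3051 and 2706 and IGHV1-53 had 2950 and 3021.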

How the data were processed

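Libraries were made from total RNA of whole lymph node cells with a kit that adds molecular identifiers, per the labels' protocols. The authors deposited 1 table per mouse with a row per assembled sequence, its gene calls, alignments and a whole-number count, per the file headers. For the aligner, the germline set and the use of the identifiers, the sources used here give nothing. The members and gene lists were chosen with earlier results of these data known.

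Groups and replicate numbers came from the labels. Joint V names were kept, and all 94 IGHV gene names matched the GRCm38.p6 gene table, which served for names and chromosome alone. One value per mouse was compared by two-sided exact permutation tests, and classes within mice by exact sign-flip permutation tests, with Benjamini-Hochberg adjustment within families and a threshold of 0.05. V genes were tested on clonotype numbers with edgeR 4.0.16 (quasi-likelihood test) and, as an alternative, DESeq2 1.42.0 with gene-wise dispersions. The named genes were the 8 most used, the 3 with the smallest p in each direction, the B-1 list and IGHV1-72, and the smallest p were taken from the fit without a filter, because the filter left 2 genes. Named clonotypes were the leading one of each mouse, the 10 largest, the 5 in most mice and the ends of the IgG2c share. Alternatives covered assignment, minimum counts, junction errors, lineages, filters and single mice. The exact tests and the edgeR test were checked on simulated data. For edgeR the simulated clonotype numbers were larger than the real ones and had no spread between mice beyond counting error. That check therefore does not show how the edgeR test performs at the real numbers. Python 3.11.15 and R 4.3.3 were used. A 95% exact binomial interval of the IgG2 share of clonotypes ran from 1.95 to 2.34% in anti-CTLA-4 mouse 1 and from 0.319 to 0.485% in isotype mouse 4. Such intervals and floors cover counting error alone.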

Additional observations from a re-analysis of the deposited data

Results flagged for a closer look

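The IgG2c share of IgG2 counts in isotype mouse 4 was 13.6%, apart from the other isotype mice at 37.4 to 44.2%. The gap to the nearest mouse was above the 95% critical value of Dixon's test for 5 samples, and chance passes it in about 1 in 20 groups. It was the only 1 of 38 such checks to pass, fewer than chance alone would give on average. This mouse had 5227 IgG2 counts after 61.1% of its IgG2 counts were given to other mice, and 1 clonotype held 55.8% of the rest. The part of these in the low share was not tested.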

How the results depend on the processing

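The 5 mice per group, the IgG2 counts left in isotype mouse 4 (5227) and the counts held by a few clonotypes limit the precision. Replicate numbers did not pair the mice (correlations of deviations between -0.129 and 0.179). With the replicate block, where 5 pairs allow no p below 0.0625, the difference was 0.814 points for the IgG2 share of clonotypes, 20.5 for its share of counts and 16.4 for the IgG2c share, and no V gene was called. The causes of the changes below were not tested.

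For the group comparisons, the difference in the leading clonotype share was 0.984 points with no assignment and 3.41 without both replicate 4 mice, where that of IGHJ2 was -0.229. Weighted by counts, CDR3 length differed by -0.269, mean mismatches by -0.217 and the share without a mismatch by 20.9. With clonotypes led by another class left out (chosen after seeing the data), the difference was -0.569 clonotypes at equal depth and -0.699 points for sharing with IgG1, and the CDR3 length difference was 0.00535 from IgG1 and -0.0251 between IgG2c-led and IgG2b-led.

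Between classes, the share without a mismatch differed from IgG1 by -7.09 with error collapse and -10.6 without both replicate 4 mice, and from IgG3 by -6.82 at 2 or more counts, -6.73 with error collapse and -13.3 without both replicate 4 mice, none past the threshold. Mismatches differed from IgG1 by 0.162 without both replicate 4 mice, no longer past it. The IgG2c-led minus IgG2b-led difference passed it with no assignment (mismatches -0.250, share 13.99, median count 65.0), error collapse (-0.247 and 83.2), without both replicate 4 mice (-0.228 and 63.7) and without clonotypes led by another class (-0.278 and 82.3). At 100 or more counts it did not pass (-0.153, 8.66 and 177.9).

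Leaving out 1 mouse at a time gave 0.610 to 1.10 for the IgG2 share of clonotypes, 10.8 to 20.7 for the IgG2c share, -0.0377 to 0.416 for CDR3 length, -0.229 to -0.0294 for mismatches, 3.28 to 9.30 for the share without one, 0.933 to 6.78 for the inverse Simpson index, -9.82 to 1.47 for the leading clonotype share, -5.35 to 37.5 for clonotypes at equal depth, -2.26 to 2.97 for sharing with IgG1 and -0.577 to 3.48 for IGHJ3. Between classes it gave -13.1 to -9.28 for the share without a mismatch against IgG1 and -12.9 to -9.16 against IgG3, and -0.118 to 0.0633 and -0.153 to 0.0511 for CDR3 length against IgG1 and IgM. Between IgG2c-led and IgG2b-led it gave -0.263 to -0.162 for mismatches, 8.24 to 14.8 for the share without one, 31.9 to 63.7 for median count and -0.236 to 0.181 for CDR3 length. The V gene test called 0 to 1, the 1 being IGHV1-5.

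The filter of edgeR left no gene, and so no value, with lineages, a count of at least 2 or IgG2-led clonotypes. A filter of 20 clonotypes (chosen after seeing the data) tested 41 genes and called 0 (0%), with 4 at an unadjusted p under 0.05 by edgeR, and DESeq2 called 0 with 6. With no filter and no assignment 1 gene of 107, IGHV1-49, was called by edgeR, with an adjusted p of 0.0477.

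None of the V genes below passed the threshold, and their log2 fold change had a sign in these fits opposite to that in all 10 mice without a filter. With counts in place of clonotypes it was 0.83 for IGHV1-80, 0.78 for IGHV9-3 and 2.44 for IGHV14-1/IGHV14-2. The rest are without a filter unless stated. With lineages it was 0.69 for IGHV1-80, -0.052 for IGHV1-26, 0.042 for IGHV9-3, 0.088 for IGHV3-6 and 0.41 for IGHV14-1/IGHV14-2. With error collapse it was -0.049 for IGHV1-26 and 0.36 for IGHV14-1/IGHV14-2, and without both replicate 4 mice -0.23 and 0.23. With DESeq2 it was 0.25 for IGHV9-3 and 0.10 for IGHV14-1/IGHV14-2. With a count of at least 2 it was 0.017 for IGHV9-3, 0.26 for IGHV3-6 and 0.71 for IGHV14-1/IGHV14-2. With IgG2-led clonotypes it was 0.059 for IGHV9-3, 0.62 for IGHV14-1/IGHV14-2 and 0.17 for IGHV1-72. With no assignment it was 0.27 for IGHV14-1/IGHV14-2 and 0.15 for IGHV1-72. With the replicate block it was 0.023 for IGHV3-6 and 0.12 for IGHV14-1/IGHV14-2. With at least 20 clonotypes IGHV14-1/IGHV14-2 was at 0.14, and 0.072 by DESeq2.

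Leaving out 1 mouse turned the sign for IGHV1-80 without isotype mouse 5 (0.66) and IGHV7-1 without isotype mouse 3 (1.17). It turned it for IGHV1-26 without anti-CTLA-4 mouse 1 or 5 (-0.092, -0.042) or isotype mouse 3 or 4 (-0.097, -0.016), and for IGHV9-3 without anti-CTLA-4 mouse 3 or 5 (0.38, 0.029) or isotype mouse 2 (0.28). For IGHV3-6 it did so without anti-CTLA-4 mouse 3 (0.053) or isotype mouse 2 (1.12), and for IGHV14-1/IGHV14-2 without anti-CTLA-4 mouse 1, 2, 4 or 5 (0.46, 0.092, 0.43, 0.047) or isotype mouse 2 or 3 (1.11, 0.25). For IGHV1-72 it did so without anti-CTLA-4 mouse 1 or 2 (0.198, 0.203) or isotype mouse 1 or 5 (0.12, 0.24). The lowest and highest values were -2.30 and 0.66 for IGHV1-80, -0.10 and 0.60 for IGHV1-26, -1.05 and 0.38 for IGHV9-3, -1.06 and 1.12 for IGHV3-6, -0.39 and 1.11 for IGHV14-1/IGHV14-2, -2.85 and 1.17 for IGHV7-1, and -0.43 and 0.24 for IGHV1-72.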
